A study of Homo sapiens with 12 samples.

Results

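The small nucleolar RNA (snoRNA) host genes described here are SNHG1, SNHG3, SNHG5, SNHG6, SNHG7, SNHG8, SNHG12, SNHG15, SNHG16 and GAS5, noncoding genes whose introns hold snoRNAs. They were taken by symbol, 10 of the 25680 gene symbols in the deposited tables, and the counts of their 18 RefSeq transcripts were summed per symbol. All 10 passed the filter on low counts. RNA was sequenced from the human multiple myeloma lines MM.1S and U266 after 6 h with 6 µM IT848, which the labels call an NF-kB inhibitor, or with DMSO, the solvent. The groups were MM.1S with IT848, MM.1S with DMSO, U266 with IT848 and U266 with DMSO, with 3 libraries each and 12 in all, and both lines grew in RPMI medium with serum. Nothing in the labels tells separate cultures from repeat libraries of 1 culture. P-values therefore measure the spread between libraries, which may be technical.

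A snoRNA host gene is transcribed by RNA polymerase II, spliced, and cut so that each snoRNA is released from its own intron. C/D box snoRNAs guide 2′-O-methylation of ribosomal RNA and H/ACA box snoRNAs guide its pseudouridylation, so these genes serve ribosome production. Several of the spliced host RNAs start with a 5′ terminal oligopyrimidine (TOP) tract, as ribosomal protein mRNAs do, and several are known substrates of nonsense-mediated decay, with GAS5 the classical example, named for its accumulation in growth-arrested cells. SNHG1, SNHG5, SNHG6, SNHG16 and GAS5 are hosts of C/D box snoRNAs, SNHG3, SNHG7, SNHG8 and SNHG15 of H/ACA box snoRNAs, and SNHG12 of both kinds.

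The annotated starts of the hosts were searched for a run of pyrimidines like that of a TOP tract. RefSeq start windows (GRCh38.p14) were matched for 8 members, and SNHG6 and SNHG15 are named only. The windows below hold 10 bases before the annotated start and 30 from it, and the capitals mark the unbroken run of C and T that begins at the start. The first 3 are the members with a C at the start followed by at least 3 more pyrimidines. SNHG1 is shown for its shorter run and SNHG16 as a member with none.
SNHG12 (chr1:28581844-28581883, minus strand): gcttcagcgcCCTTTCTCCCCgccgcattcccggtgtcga
SNHG5 (chr6:85678704-85678743, minus strand): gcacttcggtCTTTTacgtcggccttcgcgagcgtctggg
SNHG7 (chr9:136728155-136728194, minus strand): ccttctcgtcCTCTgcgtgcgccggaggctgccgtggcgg
SNHG1 (chr11:62855856-62855895, minus strand): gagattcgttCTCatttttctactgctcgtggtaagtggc
SNHG16 (chr17:76557754-76557793, plus strand): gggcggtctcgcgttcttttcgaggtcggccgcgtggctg
The run was 11 bases in SNHG12, 5 in SNHG5, 4 in SNHG7, 3 in SNHG1 and 1 in SNHG8, and the annotated starts of SNHG3, SNHG16 and GAS5 began with a purine. A start of C with at least 3 further pyrimidines was held by 3 of the 8 members and by 5.45% of all 35116 RefSeq windows. Annotated starts are not starts measured in these cells, and the windows were matched by symbol and not to the counted transcripts. A purine at the annotated start therefore does not show that a member lacks a TOP tract.

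Most nested snoRNAs called below lie in the introns of GAS5 and SNHG1. Those of SNHG1 that were found in GENCODE 29 (GRCh38) are shown, and the GAS5 ones are named only. Capitals stand for the letters TGATGA of a C box and CTGA of a D box, the pair of motifs that C/D box proteins bind. SNORD26 and SNORD28 hold the CTGA letters and no exact TGATGA.
SNORD25 (chr11:62855564-62855632, minus strand): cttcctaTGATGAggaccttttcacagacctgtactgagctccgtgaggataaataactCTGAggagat
SNORD26 (chr11:62855292-62855366, minus strand): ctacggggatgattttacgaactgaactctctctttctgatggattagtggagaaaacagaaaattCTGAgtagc
SNORD27 (chr11:62855012-62855083, minus strand): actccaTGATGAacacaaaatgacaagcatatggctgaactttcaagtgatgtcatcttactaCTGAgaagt
SNORD28 (chr11:62854621-62854695, minus strand): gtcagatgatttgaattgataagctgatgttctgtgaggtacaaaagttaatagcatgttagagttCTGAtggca
SNORD30 (chr11:62853663-62853732, minus strand): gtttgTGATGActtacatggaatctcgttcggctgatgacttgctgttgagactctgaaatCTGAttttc

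Some features of the libraries bear on all results. Libraries held 50627690 to 72039748 transcript counts. The 9 plasma cell markers were all detected in every group, and the line markers summed to 8848 to 10634 CPM in MM.1S libraries and 402 to 475 CPM in U266 libraries for the MM.1S genes MAF, ITGB7 and CCND2. U266 IT848 replicate 1 held 0.95% of the MM.1S level of genes otherwise near 0 in U266, and MM.1S DMSO replicate 2 held 0.401% of the U266 level of genes otherwise near 0 in MM.1S. These 2 are the libraries said below to hold reads of the other line. For the U266 DMSO libraries only 1 gene could be chosen, at 1.14, 0.343 and 0.874% in replicates 1 to 3. That is too few to show whether they hold such reads. The libraries also differed with transcript length. Spearman's rho between length and a library's deviation from the line's mean, across 11485 genes, was 0.0291, −0.301 and −0.421 in MM.1S IT848 replicates 1 to 3 and 0.373, 0.312 and 0.152 in MM.1S DMSO replicates 1 to 3. It was −0.207, 0.0876 and −0.199 in U266 IT848 replicates 1 to 3 and −0.00474, 0.193 and 0.123 in U266 DMSO replicates 1 to 3. In MM.1S every IT848 library lay below every DMSO library, so a technical trend and a length-linked effect of IT848 cannot be told apart. Taking the trend out may also take out part of a response, so both values are descriptions and neither is a corrected result. The members are short, with a median of 771 bases against 3081 for these genes, so values with the trend taken out are given where they end or make a call of a member or move a called one by over 1.5 times. Markers of stromal cells, all 6 detected, summed to 23.4 to 29.6 CPM in MM.1S with IT848 and 15.9 to 20.4 CPM with DMSO, and to 35.5 to 43.6 CPM in U266 with IT848 and 28.1 to 32.9 CPM with DMSO. Erythroid markers, 3 of 5 detected in MM.1S, summed to 4.22 to 5.43 CPM in MM.1S with IT848 and 2.19 to 2.28 CPM with DMSO, and to 1.06 to 1.17 CPM in U266 with IT848 and 0.779 to 1.56 CPM with DMSO. Plasma cell markers summed to 6261 to 6465 CPM in MM.1S with IT848 and 6555 to 6633 CPM with DMSO, and to 2768 to 2861 CPM in U266 with IT848 and 3206 to 3401 CPM with DMSO. These sums hide opposite changes. Of the 9, 6 fell and 2 rose in MM.1S (median −0.51; 19.6% of all genes lower, 18.7% higher). In U266 7 fell and 1 rose (median −0.39; 4.98% of all genes lower, 4.03% higher). SLAMF7 alone went from a mean of 2796 CPM with DMSO to 3755 with IT848 in MM.1S. The part of these markers in the results was not tested. In bulk samples, less RNA in every cell and fewer cells that hold it cannot be told apart.

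Levels under DMSO were compared between genes per length, as TMM-scaled CPM (each gene's counts as a share of the library's total) per kilobase of the most counted transcript. Here the total held only the most counted transcript of each symbol, 22887470 to 32913398 counts per library. The values per length are therefore on a higher scale than the CPM given elsewhere. In MM.1S with DMSO, GAS5 was first at 254 ± 0.319 (SD, n = 3), followed by SNHG5 at 179 ± 11.3, SNHG1 at 168 ± 3.19 and SNHG6 at 164 ± 10.3, and the ranges of these last 3 genes overlapped. SNHG8 (83.3 ± 4.28), SNHG12 (66.6 ± 3.61) and SNHG3 (53.6 ± 0.613) came next without overlap, then SNHG7 (28.3 ± 1.69) and SNHG16 (26.2 ± 1.0), which overlapped, and SNHG15 was last at 16.8 ± 0.901. In U266 with DMSO the order per length began with SNHG5 at 281 ± 7.69 and GAS5 at 245 ± 6.77 and ended with SNHG7 at 28.5 ± 1.20 and SNHG15 at 27.5 ± 1.87, and only this last pair of neighbours overlapped. SNHG16 stood in the middle of that order in U266, at 57.8 ± 2.09, and near its end in MM.1S.

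**Figure D1:**
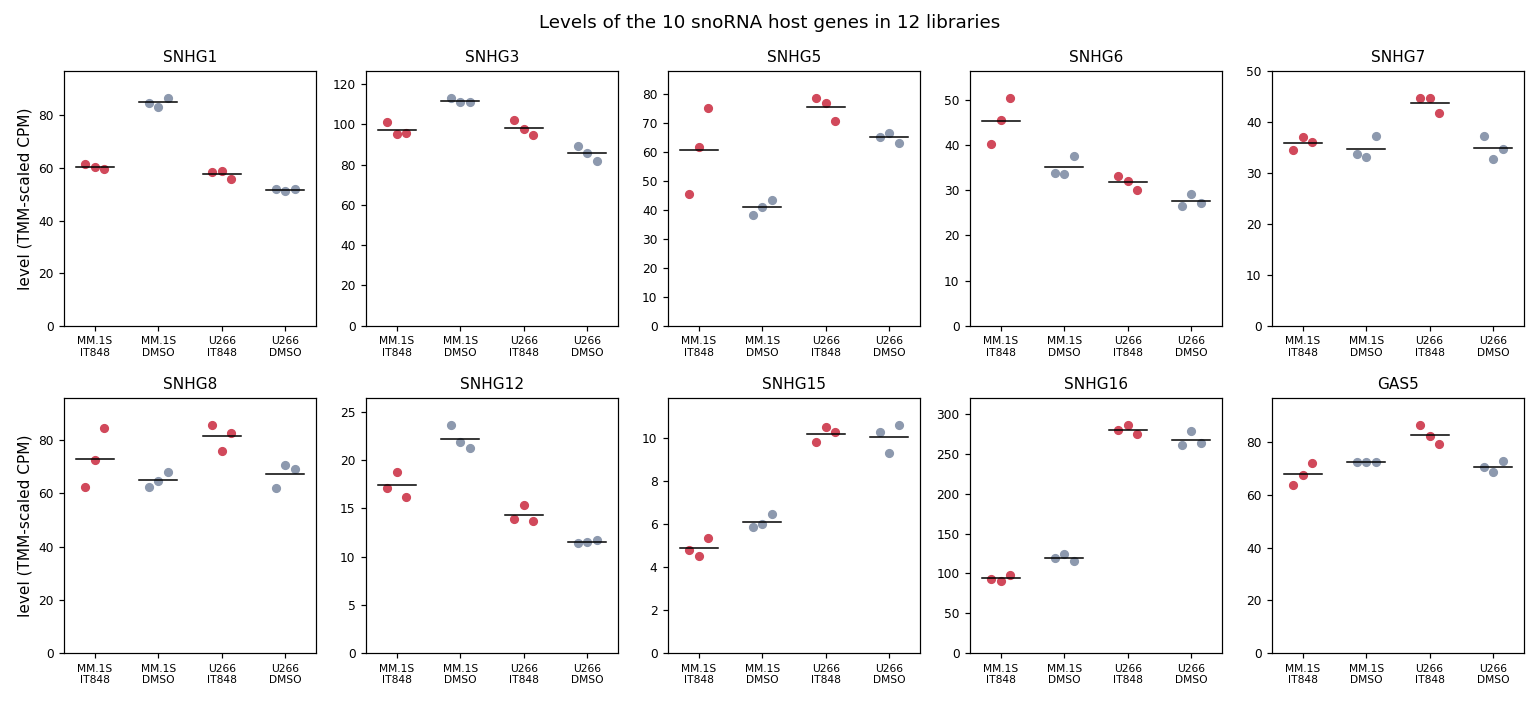
TMM-scaled CPM of each host gene (vertical axes, each from 0) in the 12 libraries, by group; points are libraries and bars the means of 3. SNHG1 and SNHG12 in MM.1S stood lower with IT848 than with DMSO in every library, whereas SNHG5 with IT848 spread from 45.5 to 75.3 CPM.

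The untreated lines differed in most of the host genes. Called by edgeR's quasi-likelihood test at a Benjamini-Hochberg adjusted p below 0.05, 4 members were higher in MM.1S than in U266 and 3 were lower, against 82.6% of 16782 tested genes called in this comparison (40.6% higher, 42.1% lower), so the share called is near the background. The groups did not overlap for 7 of 10 members, against 84.7% of all genes. SNHG12 had 23.6, 21.9 and 21.2 CPM in MM.1S libraries and 11.4, 11.5 and 11.7 CPM in U266 libraries, SNHG1 had 84.9, 83.4 and 86.6 CPM in MM.1S and 52.0, 51.3 and 52.1 CPM in U266, and none of these groups overlapped. Their log2 fold changes, MM.1S over U266, were 0.95 ± 0.07 (SE, adjusted p 5.7e-09) and 0.71 ± 0.04 (adjusted p 2.3e-10), and SNHG3 (0.39 ± 0.04) and SNHG6 (0.34 ± 0.08) were higher as well. SNHG16, host of SNORD1A, SNORD1B and SNORD1C, had 120, 125 and 115 CPM in MM.1S and 261, 279 and 264 CPM in U266, so that all MM.1S libraries were lower, with a log2 fold change of −1.16 ± 0.05 (adjusted p 3.0e-12). SNHG15 (−0.72 ± 0.08) and SNHG5 (−0.67 ± 0.13) were also lower in MM.1S. SNHG7, SNHG8 and GAS5 did not pass the test, with 95% intervals of −0.15 to 0.13, −0.26 to 0.16 and −0.08 to 0.15. With the length trend taken out GAS5 was called higher in MM.1S (0.18, adjusted p 0.00517). The trend taken out was fitted to deviations from the mean of all libraries of both lines. It therefore also takes out length-linked differences between the lines.

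In MM.1S, IT848 split the host genes. SNHG1, SNHG12, SNHG16, SNHG15 and SNHG3 fell, SNHG5 and SNHG6 rose, and SNHG7, SNHG8 and GAS5 did not pass the test. Thus 7 of 10 members were called, against 38.3% of all tested genes, with 5 lower (background 19.6%) and 2 higher (background 18.7%). The groups did not overlap for 8 of 10 members, against 47.2% of all genes. The median log2 fold change of the members was −0.15, against −0.01 over all genes.

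Among the C/D box hosts, SNHG1 gave the largest fall. SNHG1, which holds 8 snoRNAs, had 61.7, 60.4 and 59.6 CPM in MM.1S with IT848 and 84.9, 83.4 and 86.6 CPM with DMSO. Every treated library lay far below every control library, and the log2 fold change was −0.49 ± 0.04, a level 28.7% lower (adjusted p 4.2e-07, edgeR's quasi-likelihood test). SNHG16 had 92.8, 90.5 and 98.3 CPM with IT848 and 120, 125 and 115 CPM with DMSO, again without overlap (−0.36 ± 0.05, adjusted p 2.9e-05).

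SNHG5, the host of SNORD50A and SNORD50B and first known from a chromosomal translocation in a B cell lymphoma, moved the other way. It had 45.5, 61.8 and 75.3 CPM in MM.1S with IT848 and 38.3, 41.2 and 43.4 CPM with DMSO. The groups did not overlap, but replicate 1 lay near the controls, and the order of the 3 treated libraries is that of their length trends. The log2 fold change was 0.57 ± 0.13 (adjusted p 0.00454), and 0.25 with the length trend taken out, still called. SNHG6, the host of SNORD87, had 40.2, 45.5 and 50.4 CPM with IT848 and 33.9, 33.7 and 37.6 CPM with DMSO. Its rise of 0.37 ± 0.08 (adjusted p 0.00147) came to 0.06 with the trend taken out, which ended the call (adjusted p 0.329). Without MM.1S IT848 replicate 1 SNHG5 stood at 0.76, and without replicate 3 at 0.40.

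GAS5, the host of 10 C/D box snoRNAs, had 64.0, 67.5 and 72.3 CPM in MM.1S with IT848 and 72.5, 72.7 and 72.6 CPM with DMSO. All treated libraries were below the controls, but replicate 3 by little, and the log2 fold change of −0.10 ± 0.05 did not pass the test (adjusted p 0.147; 95% interval −0.21 to 0.02). It came to −0.37 and was called with the length trend taken out (adjusted p 6.8e-05).

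Of the H/ACA box hosts, SNHG3 and SNHG15 fell. SNHG3, which holds the snoRNAs SNORA73A and SNORA73B, had 101, 95.3 and 95.7 CPM in MM.1S with IT848 and 113, 111 and 111 CPM with DMSO (−0.20 ± 0.04, adjusted p 0.00224). SNHG15, the host of SNORA9 and the least expressed member per length, had 4.79, 4.50 and 5.37 CPM with IT848 and 5.86, 5.99 and 6.48 CPM with DMSO (−0.32 ± 0.09, adjusted p 0.00997). Neither pair of groups overlapped, and the SNHG15 call was lost without MM.1S IT848 replicate 2 (−0.26, adjusted p 0.0536). SNHG12, which holds 3 H/ACA box snoRNAs and SNORD99, had 17.1, 18.8 and 16.2 CPM with IT848 and 23.6, 21.9 and 21.2 CPM with DMSO, so all treated libraries were lower (−0.36 ± 0.07, adjusted p 8.1e-04). SNHG12 was at −0.61 and SNHG15 at −0.56 with the length trend taken out, both still called. SNHG7 (0.04 ± 0.06) and SNHG8 (0.17 ± 0.09) were not called, with overlapping groups. Their 95% intervals were −0.10 to 0.19 and −0.04 to 0.37. With the length trend taken out both turned to −0.16 and −0.12, still not called (adjusted p 0.0589 and 0.0665), and without MM.1S IT848 replicate 1 SNHG8 was called higher (0.29, adjusted p 0.00896).

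**Figure D2:**
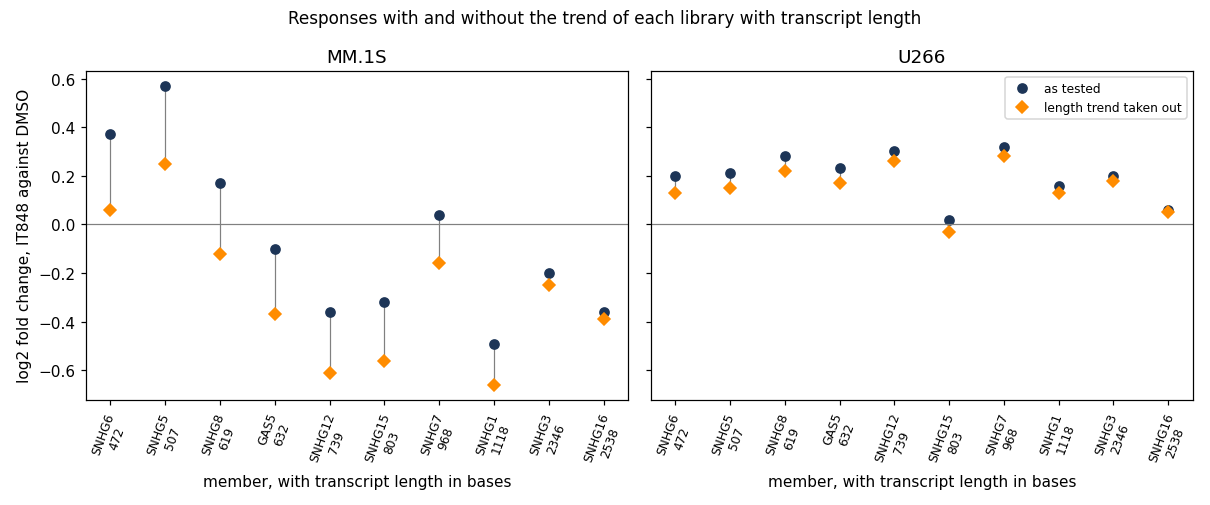
Log2 fold change of IT848 against DMSO (vertical axis) for each member, ordered by transcript length, as tested (circles) and with the trend of each library with length taken out (diamonds), in MM.1S and U266. In MM.1S SNHG6 moves to 0.06 and GAS5 to −0.37, while SNHG16, the longest member, is at −0.36 as tested and −0.39 without the trend.

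In U266, 5 host genes rose with IT848 and none fell. SNHG7, SNHG12, GAS5, SNHG3 and SNHG1 rose by small amounts, and SNHG5, SNHG6, SNHG8, SNHG15 and SNHG16 did not pass the test. The 5 of 10 members called compare with 9.01% of all tested genes (4.03% higher, 4.98% lower), and the groups did not overlap for 8 of 10 members against 28.9% of genes. The median log2 fold change was 0.21, against 0.01 over all genes. At an unadjusted p below 0.05, 7 members were higher and 0 lower, and DESeq2 called 6 higher and 0 lower.

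SNHG7, the host of SNORA17 and SNORA43, had 44.7, 44.7 and 41.7 CPM in U266 with IT848 and 37.3, 32.8 and 34.7 CPM with DMSO. The treated libraries were all higher, with a log2 fold change of 0.32 ± 0.06 (adjusted p 0.00314, edgeR's quasi-likelihood test), and this call held in all 22 alternatives. SNHG12 had 13.9, 15.3 and 13.7 CPM with IT848 and 11.4, 11.5 and 11.7 CPM with DMSO (0.30 ± 0.07, adjusted p 0.0127). GAS5 had 86.5, 82.6 and 79.4 CPM with IT848 and 70.5, 68.9 and 72.8 CPM with DMSO, without overlap (0.23 ± 0.05, adjusted p 0.00876).
SNHG3 had 102, 97.9 and 94.8 CPM with IT848 and 89.0, 85.8 and 81.9 CPM with DMSO (0.20 ± 0.04, adjusted p 0.0102), and SNHG1 had 58.6, 59.0 and 56.0 CPM with IT848 and 52.0, 51.3 and 52.1 CPM with DMSO (0.16 ± 0.04, adjusted p 0.0212). In both genes each treated library exceeded each control. The rises stood at 11.7 to 25.0%.

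Of the members not called in U266, SNHG8, the host of SNORA24, came nearest, at 85.6, 76.1 and 82.9 CPM with IT848 and 62.2, 70.6 and 69.0 CPM with DMSO (0.28 ± 0.09, adjusted p 0.0765). SNHG5 (0.21 ± 0.13) and SNHG6 (0.20 ± 0.08) also had groups that did not overlap, and SNHG15 (0.02 ± 0.08) and SNHG16 (0.06 ± 0.04) had groups that did. The count of 5 rests on single libraries: it was 3 without U266 IT848 replicate 1, without U266 IT848 replicate 2 or without U266 DMSO replicate 3, and 2 without both libraries that hold reads of the other line. It was 8 when the U266 libraries were fitted alone. With the length trend taken out it was 3: SNHG3 and SNHG7 kept their calls, SNHG8 gained one (0.22, adjusted p 0.00725), and SNHG1 (0.13, adjusted p 0.191), SNHG12 (0.26, adjusted p 0.146) and GAS5 (0.17, adjusted p 0.0503) lost theirs. SNHG8 was called in 8 of 22 alternatives, DESeq2 among them (adjusted p 0.0468), and SNHG1 lost its call in 8 of 22, among them without any 1 of U266 DMSO replicates 1 to 3 or U266 IT848 replicates 1 and 2 (adjusted p 0.0558 to 0.0846). GAS5 also lost its call without U266 IT848 replicate 1 (adjusted p 0.0615), SNHG12 without U266 IT848 replicate 2 (adjusted p 0.0571) and SNHG3 without U266 DMSO replicate 3 (adjusted p 0.0566).

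**Figure D3:**
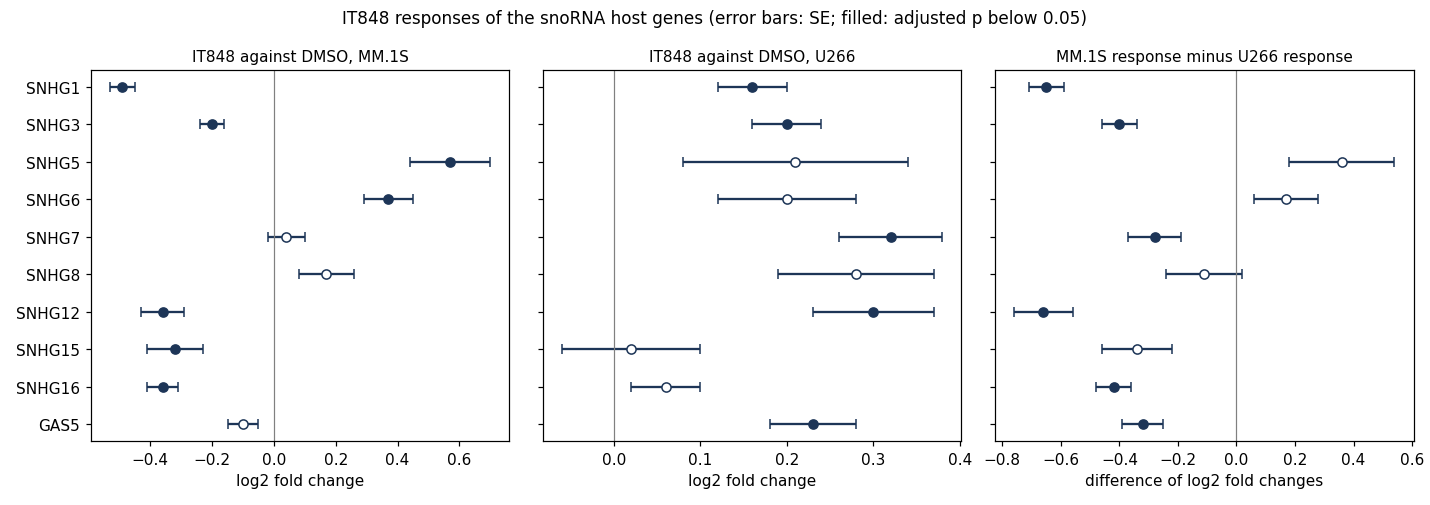
Log2 fold change of IT848 against DMSO for each member in MM.1S and in U266, and how far the response in MM.1S exceeds or falls short of that in U266; error bars are SE and filled points have an adjusted p below 0.05. SNHG1, SNHG3 and SNHG12 lie below 0 in MM.1S and above 0 in U266, with filled points in both lines. SNHG15, SNHG16 and GAS5 do so as well, but without filled points in both.

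The responses of both lines were then compared directly. In 6 of 10 members the response in MM.1S was lower than that in U266 and in 0 it was higher, against 17.4% of all tested genes called in this contrast (8.94% lower, 8.49% higher). The largest differences were those of SNHG12 (−0.66 ± 0.10, adjusted p 3.9e-04) and SNHG1 (−0.65 ± 0.06, adjusted p 4.3e-06), the 2 members that also stood highest in untreated MM.1S relative to U266. SNHG1, SNHG3 and SNHG12 were called lower in MM.1S and higher in U266, but with the length trend taken out the U266 calls of SNHG1 (adjusted p 0.191) and SNHG12 (adjusted p 0.146) were lost, and SNHG3 alone kept both. The comparison of lines under DMSO uses the same DMSO libraries as these contrasts. The treated libraries of both lines stood closer together than the controls for SNHG1, at 59.6 to 61.7 CPM in MM.1S and 56.0 to 59.0 CPM in U266. SNHG16 (−0.42 ± 0.06), SNHG3 (−0.40 ± 0.06) and GAS5 (−0.32 ± 0.07, adjusted p 0.00598) differed as well. SNHG7 differed by −0.28 ± 0.09 (adjusted p 0.0387), a call lost in 14 of 21 alternatives, 10 of which left out 1 library. GAS5 lost its call without the 2 libraries that hold reads of the other line (−0.28, adjusted p 0.0559). The differences of SNHG5, SNHG6, SNHG8 and SNHG15 did not pass the test, with 95% intervals of −0.07 to 0.78, −0.08 to 0.42, −0.40 to 0.18 and −0.61 to −0.06. With the length trend taken out SNHG8 (−0.34, adjusted p 0.00300) and SNHG15 (−0.53, adjusted p 0.00484) were called, SNHG6 turned to −0.07 (adjusted p 0.511), SNHG5 came to 0.10 (adjusted p 0.534), GAS5 stood at −0.54 and SNHG7 at −0.44. SNHG15 was called in 5 of 21 alternatives, and SNHG5 was called without MM.1S IT848 replicate 1 (0.55, adjusted p 0.00299).

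The rows of the nested snoRNAs fell with IT848 in MM.1S or did not pass the test, and none rose. Of 36 snoRNAs listed for the members, 32 had a row in the tables, all with at least 10 counts in some library and all inside the host's span in RefSeq, and 31 passed the filter. The 4 entries with no matched row were SNORA73A and SNORA73B of SNHG3 and the names SNORA17A and SNORA17B of SNHG7. In MM.1S with IT848, 19 of 31 rows were lower and 0 higher (median −0.63), where 38.3% of all genes were called. The other 145 tested SNORA and SNORD rows had 31 lower and 1 higher, with a median of −0.38. The nested snoRNAs are 60 to 134 bases long and the reads were 150 bases per the labels, so a read on such a row can come from the unspliced host or a precursor, and these cannot be told apart from the mature snoRNA. Rows of 1 host share their primary transcript and are not independent.

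All 8 SNHG1 rows fell in MM.1S, by 0.55 to 0.92 on the log2 scale. SNORD22, the longest of them, had 2.63, 3.05 and 1.76 CPM in MM.1S with IT848 and 5.45, 4.77 and 3.88 CPM with DMSO. All its treated libraries were lower (−0.92 ± 0.17, adjusted p 7.6e-04). SNORD25 had 3.64, 4.30 and 3.97 CPM with IT848 and 6.86, 6.09 and 6.39 CPM with DMSO, also without overlap (−0.70 ± 0.15, adjusted p 0.00246). All 8 were also called by DESeq2 and with either other scaling. SNORD28 alone lost its call, with the length trend taken out (−0.39, adjusted p 0.0927), without MM.1S DMSO replicate 3 (−0.51, adjusted p 0.0613) and without MM.1S IT848 replicate 3 (−0.41, adjusted p 0.105).

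Of the 10 GAS5 rows, 9 fell in MM.1S with IT848, while GAS5 itself was not called in the main test. Their log2 fold changes were −0.41 to −0.72, and SNORD75, the row that did not pass the test, was at −0.77 (adjusted p 0.0942). GAS5 was called lower, at −0.37, once the trend with transcript length was removed. The 9 rows then stood at −0.23 to −0.53, on both sides of the host. SNORD47, the most counted of them, had 6.10, 6.25 and 5.81 CPM with IT848 and 8.06, 8.76 and 8.20 CPM with DMSO (−0.46 ± 0.08, adjusted p 3.5e-04). SNORD76 had 4.24, 3.56 and 3.0 CPM with IT848 and 5.90, 5.80 and 5.58 CPM with DMSO (−0.68 ± 0.12, adjusted p 4.5e-04). Neither snoRNA had overlapping groups. The count of 9 was 5 without MM.1S DMSO replicate 1, 5 without MM.1S IT848 replicate 3, and 4 with the length trend taken out (SNORD47, SNORD76, SNORD79 and SNORD81). It was 5 as well without the 2 libraries that hold reads of the other line. Of the 4 SNHG12 rows SNORA61 (−0.44 ± 0.14) and SNORA16A (−0.54 ± 0.20, adjusted p 0.0469) fell, but without MM.1S DMSO replicate 1 or MM.1S IT848 replicate 3 none of the 4 was called, and without U266 DMSO replicate 1 or 3, U266 IT848 replicate 2, MM.1S DMSO replicate 2 or MM.1S IT848 replicate 1 or 2 only 1 was. None of the 4 was called with the length trend taken out (SNORA61 at −0.37, adjusted p 0.0527, and SNORA16A at −0.48, adjusted p 0.0762). Over all hosts the count of 19 was 12 without MM.1S IT848 replicate 3 and 11 with the length trend taken out. None of the 9 rows of the other hosts was called. SNORD50B of SNHG5, for instance, had −0.63 ± 0.28 (adjusted p 0.0927) while its host rose.

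In U266 none of the 31 nested rows was called by edgeR or by DESeq2, with 1 higher and 0 lower at an unadjusted p below 0.05, and the median was 0.10. SNORD47 had 6.07, 6.55 and 6.33 CPM in U266 with IT848 and 5.42, 6.07 and 6.11 CPM with DMSO (0.11 ± 0.08), with overlapping groups. The response was lower in MM.1S than in U266 for 13 of 31 rows and higher for 0, 5 each in GAS5 and SNHG1, 2 in SNHG12 and 1 in SNHG16. Of all genes 17.4% were called in this contrast and 8.94% were lower. The SNHG1 count of 5 was 2 without U266 DMSO replicate 1, without U266 IT848 replicate 2, without any 1 of MM.1S DMSO replicates 1 to 3 or without MM.1S IT848 replicate 3, and 3 without U266 DMSO replicate 2 or 3 or MM.1S IT848 replicate 2. Taking out the length trend left 2 rows each of GAS5 and SNHG1 called, and 5 in all. Without U266 IT848 replicate 2, MM.1S DMSO replicate 1 or MM.1S IT848 replicate 3 the count of 13 was 7, and it was 8 without U266 DMSO replicate 2 or MM.1S IT848 replicate 2.

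**Figure D4:**
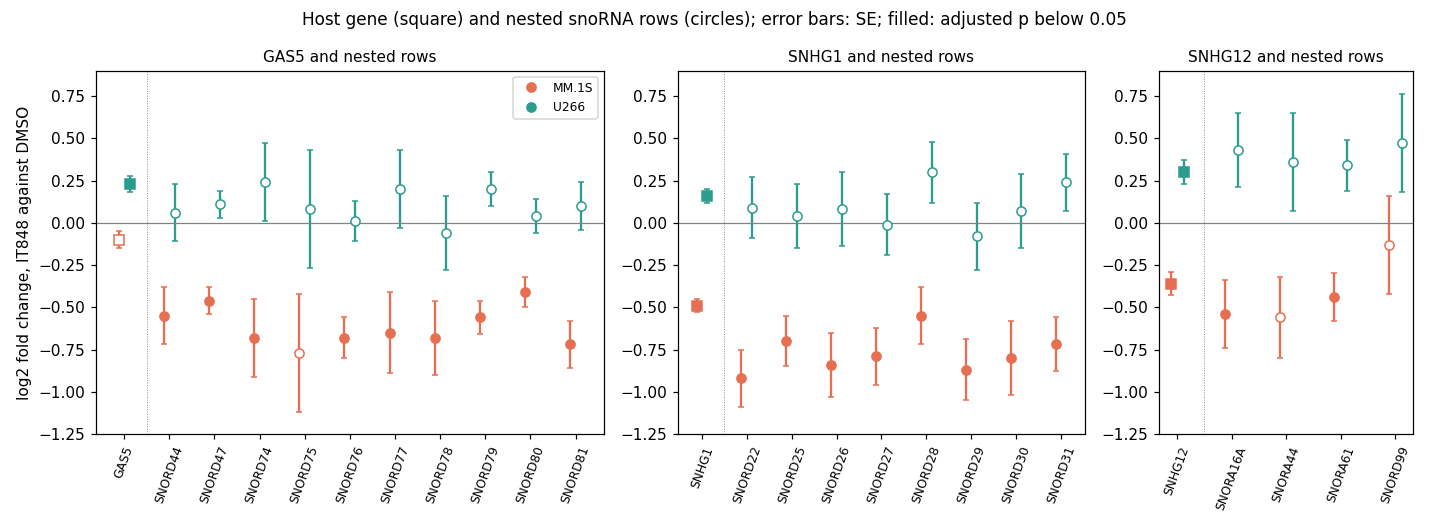
Log2 fold change of IT848 against DMSO (vertical axis) for GAS5, SNHG1 and SNHG12 (squares) and for their nested snoRNA rows (circles), in MM.1S and U266; error bars are SE and filled points have an adjusted p below 0.05. In MM.1S 19 of 31 nested rows of all hosts were lower, 9 of 10 in GAS5 and 8 of 8 in SNHG1, and in U266 none was called.

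Untreated MM.1S also had more counts on the nested rows than untreated U266, with 21 of 31 higher and 0 lower (the other SNORA and SNORD rows had 62 of 145 higher and 13 lower). The 67.7% called stood below the 82.6% of all genes called between the lines, and 40.6% of all tested genes were called higher. The 7 GAS5 rows called higher were 3 with the length trend taken out and 4 without MM.1S DMSO replicate 1. All 8 SNHG1 rows were higher, by 0.71 to 2.21 on the log2 scale. SNORD25 had 6.86, 6.09 and 6.39 CPM in MM.1S and 0.960, 1.56 and 1.64 CPM in U266 (2.21 ± 0.17, adjusted p 1.2e-08), and its host stood at 0.71. Both SNHG5 rows, SNORD50A (adjusted p 0.0255) and SNORD50B (0.70 ± 0.28, adjusted p 0.0331), were higher in MM.1S, where SNHG5 was lower. SNORD50A had only 7 to 20 counts per library.

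The nested counts were also set against the host counts within each library, a measure chosen after the values were seen. GAS5 rows held 41.2, 35.9 and 30 counts per 100 host counts in MM.1S with IT848 and 50, 50.7 and 45.2 with DMSO, with every treated library lower (means 35.7 ± 5.56 and 48.7 ± 3). In SNHG1 the ratio was 28.4, 28.6 and 22.5 with IT848 and 34.1, 33.7 and 29.8 with DMSO, again without overlap. The exact two-sided permutation p was 0.10 for both, the smallest that 3 against 3 libraries can give, and 0.18 adjusted over the 9 comparisons made. In SNHG12 the ratio was 41.6 ± 5.45 with IT848 and 44.6 ± 1.54 with DMSO in MM.1S, and the groups overlapped. In U266 the GAS5 ratio was 31.9 ± 2.05 with IT848 and 35.1 ± 0.688 with DMSO, also without overlap (exact permutation p 0.10, n = 3). That of SNHG1 was 21.4 ± 2.40 and 22.4 ± 0.926, with overlap. The ratio sets rows of 60 to 134 bases against hosts of 632 (GAS5) and 1118 bases (SNHG1), and was not computed with the length trend taken out. In MM.1S without that trend, GAS5 was at −0.37 and its 9 called rows at −0.23 to −0.53. SNHG1 was then at −0.66 and its 8 rows at −0.39 to −0.85.

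**Figure D5:**
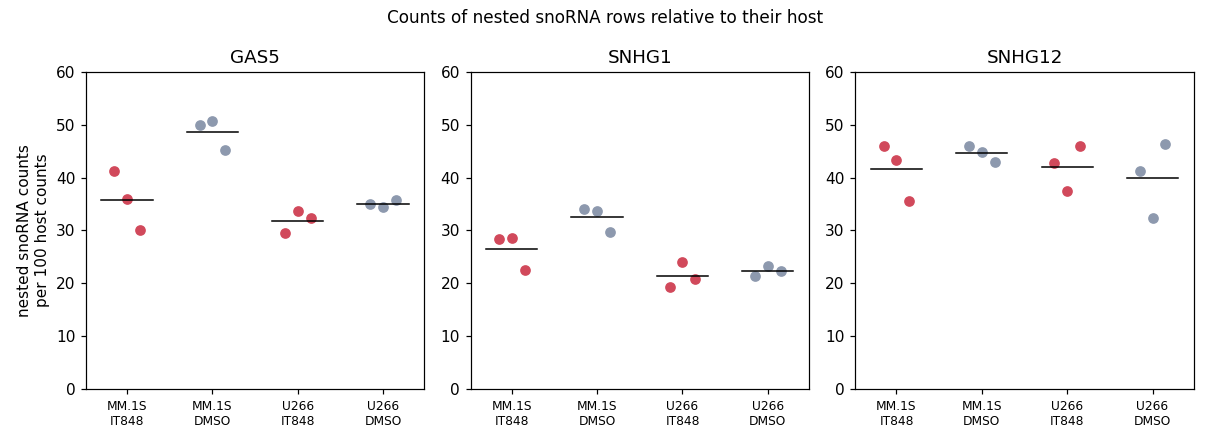
Counts on nested snoRNA rows per 100 counts of the host (vertical axes, from 0) in each library by group, for GAS5, SNHG1 and SNHG12; bars are means of 3. For GAS5 and SNHG1 the MM.1S libraries with IT848 lie below those with DMSO, and for GAS5 the U266 libraries do so as well.

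Isoforms give little to separate. SNHG16, SNHG3, SNHG7 and SNHG8 had several transcripts, and reads were counted for every transcript they overlapped. The least counted transcript held 99.3 to 99.8% of the counts of the most counted one in SNHG16, 96.6 to 98.3% in SNHG3, 71.2 to 84.1% in SNHG7 and 78.2 to 84.1% in SNHG8 over the 12 libraries.

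Genes beside the hosts did not share their directions throughout. SLC3A2, which encodes the heavy chain of an amino acid transporter and lies beside SNHG1, had 431, 440 and 395 CPM in MM.1S with IT848 and 373, 377 and 377 CPM with DMSO (0.17 ± 0.04, adjusted p 0.00397), the opposite of SNHG1, and it rose in U266 as well (0.30 ± 0.04). WDR74, a ribosome assembly factor gene on the other side of SNHG1, was called in neither line. RCC1, the exchange factor gene of the GTPase Ran, fell in MM.1S (−0.27 ± 0.04, adjusted p 3.5e-05) and not in U266 (−0.02 ± 0.04). It shares its locus with SNHG3, so reads may be shared. CCM2, beside SNHG15, fell in U266 (−0.22 ± 0.04) and was at −0.03 ± 0.04 in MM.1S. TRNAU1AP, beside SNHG12, rose in MM.1S (0.20 ± 0.07, adjusted p 0.0412), where SNHG12 fell, but its groups overlapped. GAS5-AS1, antisense to GAS5, was at −0.02 ± 0.11 in MM.1S and 0.34 ± 0.10 in U266 (adjusted p 0.0591), and it was called lower in MM.1S with the length trend taken out (−0.28). The strand setting of the counting is not given in the sources used here, so GAS5 and GAS5-AS1 may share reads. Of ZBTB37, PRSS12, MYO1G, ST6GALNAC2 and TCF24, the other tested neighbours, none was called in either line. Among all 11 tested neighbours 2 rose and 1 fell in MM.1S, where 38.3% of all genes were called. With the length trend taken out 1 rose and 2 fell.

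Other snoRNA hosts and related lists are given as counts, to be read against the 38.3% of all genes called in MM.1S (18.7% higher, 19.6% lower) and the 9.01% called in U266 (4.03% higher, 4.98% lower). In MM.1S the share called in either direction among other noncoding hosts, nonsense-mediated decay factors and regulators of mTOR and TOP translation was near that background. The decay factors called were all lower, 8 of 20. Of 14 tested noncoding hosts outside the members, 3 rose and 3 fell in MM.1S with IT848 (median −0.12), and 1 rose and 0 fell in U266 (median 0.13). In MM.1S LRRC75A-AS1 (0.41 ± 0.09) and ZFAS1 (0.34 ± 0.12), both hosts of C/D box snoRNAs, rose, and SNHG20 fell (−0.35 ± 0.09). With the length trend taken out 1 rose and 8 fell. In U266 the one that rose was DANCR (0.26 ± 0.07, adjusted p 0.0375), the host of SNORA26. Ribosomal protein genes that hold snoRNAs rose in MM.1S for 23 of 27 and fell for 0 (median 0.41; RPL39 at 0.57 ± 0.13), and 18 rose and 2 fell with the length trend taken out. In U266 none of the 27 was called by edgeR or DESeq2, and 0 had an unadjusted p below 0.05. Of 31 other protein-coding hosts, 4 rose and 16 fell in MM.1S, among them TPT1, a TOP gene (0.70 ± 0.12), and NCL, the gene of the nucleolar protein nucleolin (−0.54 ± 0.04), and 3 rose and 1 fell in U266, with HSPA8, a constitutive HSP70, at 0.40 ± 0.08.

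RNAs of genes whose proteins bind or assemble snoRNAs fell more often than they rose in MM.1S. Of 19 tested, 8 fell and 4 rose (median −0.10), and 12 fell and 1 rose with the length trend taken out, with the largest falls in NOLC1 (−0.63 ± 0.04), a nucleolar phosphoprotein that binds H/ACA and C/D particles, TCOF1 (−0.62 ± 0.05), a nucleolar factor, and NOP58 (−0.40 ± 0.05), a core C/D protein and itself a snoRNA host. In U266 none of the 19 was called by edgeR, with 0 higher and 1 lower at an unadjusted p below 0.05 and 1 lower by DESeq2. TOP genes of translation rose for 11 of 20 and fell for 5 in MM.1S, and for 7 and 7 with the length trend taken out, while none of the 20 was called in U266 by edgeR, with 0 higher and 2 lower at an unadjusted p below 0.05 and 1 lower by DESeq2. Among 20 nonsense-mediated decay factors, 8 fell and 0 rose in MM.1S (7 fell and 2 rose with the length trend taken out). In U266 there were 2 that fell, SMG6 (−0.32 ± 0.07) and UPF3A (−0.22 ± 0.04). Of 17 other transcripts known to be decay-sensitive, 7 rose and 3 fell in MM.1S (7 and 5 with the length trend taken out), with ASNS, asparagine synthetase, at 0.58 ± 0.05, and 10 rose and 0 fell in U266, with ATF3, a stress transcription factor, at 0.87 ± 0.06. Many of these also belong to the stress response. Among regulators of mTOR and TOP translation, 2 of 17 rose and 5 fell in MM.1S (3 and 2 with the length trend taken out) and 4 rose and 0 fell in U266. DDIT4, an mTORC1 inhibitor, fell in MM.1S (−0.69 ± 0.08) and rose in U266 (0.71 ± 0.07).

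Likeness across the 12 libraries was measured as Pearson's r of log2 CPM centred within each line, over 9122 genes with a mean of at least 10 CPM. These values share libraries, depth and length trends and are given as a description. The mean of the members (SNHG15, under 10 CPM, left out) was most like PRRG4 (0.952), HSPA8 (0.936), PI4K2B (0.932), TAGLN2 (0.920) and ATF3 (0.919). Single members were most like different genes, SNHG1 to the helicase gene BLM (0.985), SNHG3 to SOWAHC (0.953), SNHG5 to the ribosomal protein gene RPS21 (0.993), SNHG6 to TRMT112 (0.979), SNHG7 to ISG20 (0.906), SNHG8 to RGS1 (0.954), SNHG12 to CENPJ (0.965), SNHG16 to CCDC117 (0.981) and GAS5 to CCDC9 (0.941). GAS5 was closest to the mean of the members, itself included (0.948), and SNHG16 (0.353) and SNHG5 (0.401) were farthest.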

How the data were processed

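The submitters' processing notes name bcl2fastq, Trimmomatic 0.36, STAR 2.5.2b, featureCounts and Subread 1.5.2, with build hg19. No source used here gives the strand setting or the annotation release. Each deposited table gives the authors' raw count per RefSeq transcript, with FPKM and TPM. Reads count once for each transcript they overlap. Counts were summed per symbol. The deposited FPKM served to recover transcript length, and the deposited TPM was not used in any test.

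The main test was edgeR 4.0.16 (quasi-likelihood F test, robust, R 4.3.3) on all 12 libraries, with a mean per group, TMM scaling and a minimum count of 10, leaving 16782 genes. Called means a Benjamini-Hochberg adjusted p below 0.05 over all of them. The 95% intervals use the 8 residual degrees of freedom. Levels are TMM-scaled CPM. The code was tested on simulated data.

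Alternatives were RLE and upper-quartile scaling, DESeq2 1.42.0, no filter, 1 transcript per symbol, only the groups compared, each library left out, both libraries with reads of the other line left out, a length trend taken out (lowess, span 0.3), and replicate blocks. The length trend taken out was fitted to each library's deviation from the mean of all libraries in the fit. For nested snoRNAs the alternatives were added after the data were seen. Named were all members, nested snoRNAs, tested neighbours, and per list and comparison up to 3 called genes of at least 10 CPM by size. Members and lists were chosen with earlier results of these data known. Reads carried no molecular identifiers, so counting errors understate the noise. A result that the naming rule would give is not reported here.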

Additional observations from a re-analysis of the deposited data

Results flagged for a closer look

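A test of the difference between the responses of the lines to IT848, MM.1S minus U266, picked out 6 host genes (edgeR's quasi-likelihood test, adjusted over 16782 genes, log2 scale). The differences were −0.66 for SNHG12 (adjusted p 3.9e-04), −0.65 for SNHG1 (4.3e-06), −0.42 for SNHG16 (4.6e-04), −0.40 for SNHG3 (5.8e-04), −0.32 for GAS5 (0.00598) and −0.28 for SNHG7 (0.0387). In SNHG12, SNHG1 and SNHG3 each treated library in MM.1S lay below each control library, and each treated library in U266 lay above each control library. In SNHG16 the U266 groups overlapped, in SNHG7 the MM.1S groups did, and GAS5 was called in U266 and not in MM.1S. The call of a difference was lost in 14 of 21 alternatives for SNHG7. For GAS5 it was lost without both libraries that hold reads of the other line (−0.28, adjusted p 0.0559). With the length trend taken out GAS5 was called in MM.1S (−0.37, adjusted p 6.8e-05) and not in U266 (0.17, adjusted p 0.0503), and SNHG1 (0.13, adjusted p 0.191) and SNHG12 (0.26, adjusted p 0.146) were not called in U266.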

How the results depend on the processing

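Each of the 40 member values (10 genes in 4 comparisons) was recomputed under up to 22 alternatives, 870 values in all, and 794 kept their direction and side of the threshold, while 34 lost a call, 23 gained one and 19 changed sign, none of them called in the main test. In U266 the count of 5 members called was 8 with only the groups compared, 3 with the length trend taken out and 2 without the 2 libraries that hold reads of the other line, and 3 to 6 with 1 library left out. In MM.1S it was 6 to 8 and in the line difference 7 to 8 under all alternatives, and for the difference of responses 4 to 8 of a main count of 6. Of nested rows, the 19 called in MM.1S were 11 with the length trend taken out, with or without the replicate block, and 12 to 19 with 1 library left out. The 13 in the difference of responses were 5 with the trend taken out, 6 with the block as well, 6 without the 2 libraries and 7 to 14 with 1 left out. The cause of these shifts was not tested beyond the alternatives themselves.

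Values that changed sign were, in U266, SNHG15 (−0.04 without U266 DMSO replicate 2, up to 0.06 with another library left out, −0.03 with the length trend taken out, with or without the block), RCC1 (0.01 with 1 transcript per symbol) and TRNAU1AP (−0.01 with RLE, DESeq2, without U266 DMSO replicate 3 or with the trend taken out, and −0.05 without U266 IT848 replicate 1, alone or with MM.1S DMSO replicate 2). In MM.1S they were SNHG7 (−0.16), SNHG8 (−0.12) and WDR74 (−0.08) with the trend taken out, CCM2 (0.02) without IT848 replicate 3, and GAS5-AS1 (0.01 with only the groups compared or without DMSO replicate 1, 0.00 without DMSO replicate 3, 0.11 without IT848 replicate 1, down to −0.11 with another library left out). In the difference of responses they were SNHG6 (−0.07, trend taken out), SNHG8 (0.01 without MM.1S IT848 replicate 1, down to −0.22 with another library left out) and ZBTB37 (0.04 and 0.02) without U266 DMSO replicate 1 or U266 IT848 replicate 2. Between the lines they were SNHG7 (−0.06 to 0.03 with 1 library left out, 0.03 without U266 DMSO replicate 1 or MM.1S DMSO replicate 2, 0.01 without MM.1S DMSO replicate 1, 0.02 without both libraries, 0.09 trend taken out), SNHG8 (0.09, or 0.10 with the block, trend taken out), GAS5 (−0.02) and GAS5-AS1 (−0.03) with upper-quartile scaling, and GAS5-AS1 (−0.01 without U266 DMSO replicate 2, up to 0.07 with another library left out).

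Whether replicate numbers pair the libraries is not settled. The correlations given here are of deviations from the group's mean, not of whole profiles. Same-numbered IT848 and DMSO libraries correlated at 0.315, 0.00797 and 0.236 in MM.1S and 0.0735, 0.0879 and −0.0552 in U266. In MM.1S the length trends fell from replicate 1 to replicate 3 in both groups, so pairing and a shared order of these trends cannot be told apart. In MM.1S each IT848 library was most like the DMSO library of its own number, for replicate 2 by little (0.00797 against 0.00690 with DMSO replicate 1). In U266 this held for replicates 1 and 2, while IT848 replicate 3 was most like DMSO replicate 2 (0.0999). With the replicate block the members called were 7 in MM.1S, 6 in U266, 7 in the difference of responses and 7 between the lines. Depth limits the nested rows, several of which hold under 20 counts per library.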
